A study of Mus musculus with 5 samples.

Results

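The earliest response of MutuDC cells to Fanchinoline was described from the comparison of 2 RNA-seq libraries, cells after 2 h with the compound and vehicle control cells. Genes were kept when they reached 10 CPM (counts scaled to library size) in at least 1 of the pair, which left 8671 of the 53700 genes in the count table. Of the kept genes, 115 (1.33%) were called, meaning that their log2 ratio of 2 h over vehicle was at least 1 in size and that the 95% exact interval of the ratio did not hold equality. MutuDC is an established mouse line of conventional dendritic cells of the cDC1 kind, the dendritic cells that take up dying cells and present their antigens to cytotoxic T cells. The study followed the line over 5 libraries: vehicle, taken as 0 h, and 2, 6, 12 and 24 h with Fanchinoline, spelled here as in the labels. No genotype is named in the sample titles, the dose is not stated in the labels, and the libraries come from a single line. The labels call the 0 h cells a vehicle control, whereas the design text calls the controls untreated, so solvent and compound cannot be told apart. No vehicle library stands beside the later times. Hours in culture, handling and compound therefore cannot be told apart either, in any ratio over vehicle or between times. The design text also speaks of triplicates, but the count table holds 1 library per time point, and whether replicates were pooled is not stated. Every difference below is therefore a difference between 2 libraries, with no replicate spread and no p-value. Intervals cover counting error only, because there is 1 library a side. They may be too narrow even for that, since PCR copies of a molecule are not marked and count as separate reads.

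Cells answer a shortage of amino acids, damaged protein folding, heme shortage or mitochondrial trouble through the integrated stress response. Dedicated kinases phosphorylate the initiation factor eIF2, general translation slows, and the messenger RNA of the transcription factor ATF4 is translated more. ATF4 then binds composite C/EBP-ATF elements and induces amino acid transporters, amino acid synthesis enzymes, aminoacyl-tRNA synthetases and feedback regulators such as Trib3. The question asked of the 2 h library was which genes and pathways had moved at the first time sampled.

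Total counts were 33568526 in vehicle and 37589066 at 2 h, so that a gene at 10 CPM rested on 328 and 373 counts. The markers of the line were present: lineage factors of cDC1 summed to 6210 CPM in vehicle and 6747 CPM at 2 h, and cDC1 surface genes to 5152 and 6011 CPM. The largest member of the surface list was Wdfy4, at 1892 CPM at 2 h. Of the 14 compared surface genes, 5 lay above vehicle and 9 below, so the higher sum does not describe most of them. The cDC1 receptor Xcr1 was at 327 and 288 CPM and the lineage factor Irf8 was at 4259 and 5140 CPM. Markers of T cells, neutrophils, fibroblasts and erythroid cells summed to less than 2 CPM in either library, with 7 of 9 T cell and 6 of 7 neutrophil markers at 0 in both. Those of plasmacytoid dendritic cells summed to 86.7 and 84.6 CPM, of cDC2 to 111 and 159 CPM, nearly all Itgam, and of B cells to 31.8 and 24.7 CPM, nearly all Ighm. Macrophage markers summed to 544 and 474 CPM (2 of 12 at 0 in both), mostly Lyz2, and epithelial ones to 9.76 and 7.39 CPM. The share of counts from mitochondrially encoded genes was 2.58% in vehicle and 1.48% at 2 h.

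The vehicle library differed from the 2 h library by transcript length, and this touches every ratio that follows. Over the compared genes the median log2 ratio was 0.03, with quartiles of -0.20 and 0.27. Of all compared genes 52.82% lay above 0, the share to set beside counts of list members above or below vehicle. In the quintile of genes with the shortest annotated transcripts (69 to 1783 bases) the median ratio was -0.24, and 17.2% of genes lay above 0. In the quintile with the longest (5116 to 123179 bases) it was 0.37, and 84.6% lay above 0. The difference between these quintiles was 0.61, against 0.06 for 6 h over 2 h. It was 0.605 among the 2192 genes with a mean of at least 100 CPM. Of the 79 genes called higher, 54 came from the longest quintile. Of the 36 called lower, 27 came from the shortest pair of quintiles. For this reason each ratio is accompanied, where it matters, by a length-adjusted value, the ratio left after a smooth trend on transcript length and GC content was removed over all compared genes. The trend took up 43.9% of the variance of the ratios. As fractions, this was 0.439 with both terms and 0.302 with length alone. The median GC content was 52.77% for genes called higher, 41.62% for those called lower and 50.15% for all compared genes. Whether the length trend came from the RNA, the library or the cells was not tested.

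**Figure D1:**
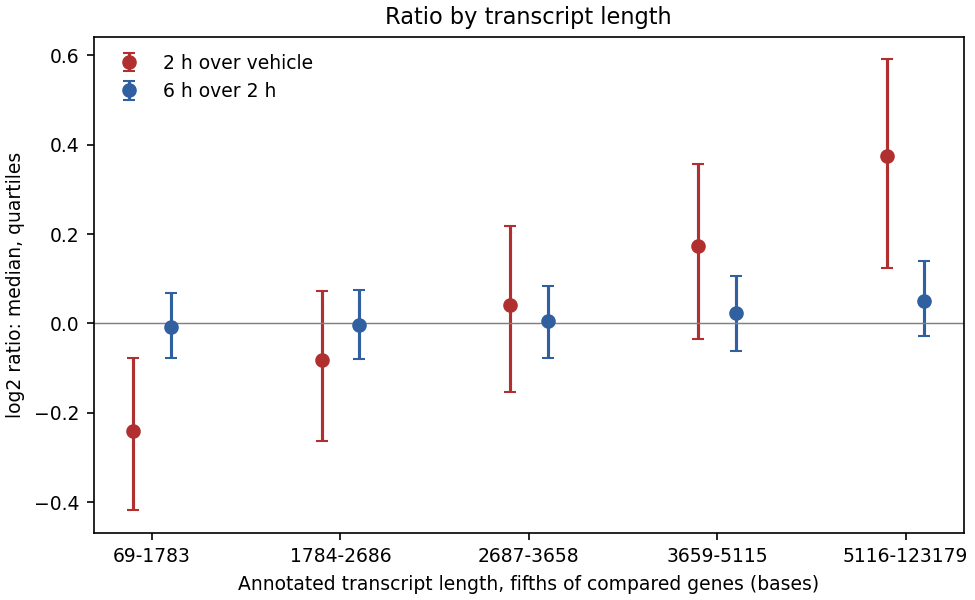
Median log2 ratio (points) and quartiles (bars) of compared genes in 5 bins of annotated transcript length in bases. The ratio of 2 h over vehicle (red) climbs from -0.24 in the shortest bin to 0.37 in the longest, while that of 6 h over 2 h (blue) stays between -0.01 and 0.05.

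In all, 79 genes were called higher (0.911% of those compared) and 36 lower (0.415%). After adjustment for length the numbers were 53 in all (0.612%), 35 higher (0.404%) and 18 lower (0.208%). Of the 79 genes 31 kept their call, and of the 36 genes 14 did. The step from vehicle to 2 h was wider than the steps between treated libraries. The SD of log2 ratios over genes was 0.39, against 0.20, 0.19 and 0.18 for the later steps in order. These SDs are not length-adjusted, and the trend on length and GC content took up 43.9% of the variance of the first step. The difference between the longest and shortest quintiles was 0.61 for that step and 0.06, 0.04 and 0.06 for the later ones. The same rule called 22 genes (0.256%) for 6 h over 2 h.

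Amino acid transporters of the ATF4 programme stood out among the genes called higher. All 10 compared transporters lay above vehicle at 2 h, with a median log2 ratio of 0.62, and 4 were called, beside 0.911% of all compared genes called higher. This list and the others of the ATF4 programme were chosen with earlier results of these data known. Length-adjusted, the median was 0.50 and the same 4 were called: Slc1a4, Slc7a1, Slc6a9 and Slc7a5. In bulk RNA, more cells in a given state and more RNA per cell cannot be told apart. Slc1a4 (chromosome 11, 20302180 to 20332713, minus strand) encodes ASCT1, an exchanger of alanine, serine and cysteine. It was at 17.5 CPM in vehicle and 60.4 at 2 h, and then, at 6, 12 and 24 h, at 28.1, 8.48 and 6.72 CPM. The 2 h library was the highest of the 5, and those of 12 and 24 h were below vehicle. Its log2 ratio of 2 h over vehicle was 1.78 (interval 1.65 to 1.92; 1.57 length-adjusted), from 575 and 2253 counts.

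Slc7a1, the main carrier of arginine and lysine, went from 85.4 CPM in vehicle to 268 at 2 h, and was at 177, 106 and 101 at 6, 12 and 24 h. Its ratio was 1.65 (1.59 to 1.71), or 1.16 length-adjusted, with an annotated transcript of 7179 bases. Slc7a5, the light chain of the leucine transporter LAT1, was at 209 CPM in vehicle and 487 at 2 h, then 318, 139 and 107. Unlike Slc7a1, which stayed above its vehicle level, Slc7a5 was below it at 12 and 24 h. Slc6a9, the glycine transporter GlyT1, was at 22.3 CPM in vehicle and 53.5 at 2 h, followed by 43.9, 15.6 and 11.1 CPM. The ratios of Slc7a5 and Slc6a9 were 1.22 (1.18 to 1.26) and 1.26 (1.14 to 1.39), and 1.02 and 1.07 length-adjusted. The other 6 compared transporters were not called and had ratios from 0.35 for Slc3a2, the heavy chain partner of Slc7a5, to 0.64 for Slc38a7. The cystine carrier Slc7a11 did not reach 10 CPM, with 2.59 CPM in vehicle and 7.23 at 2 h (85 and 270 counts). Slc36a1, a lysosomal carrier, was also under the minimum (4.58 and 8.52 CPM), and Slc7a3 and Slc43a1 had 0 counts in both libraries.

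Among amino acid synthesis enzymes and regulators of the same programme, 17 of 19 compared genes lay above vehicle, with a median of 0.28 (0.47 length-adjusted). Of the 19, 2 were called. Over all compared genes 52.82% lay above vehicle and 0.911% were called higher. Trib3, a pseudokinase that is induced by ATF4 and restrains it (chromosome 2, 152337422 to 152344032), was at 22.1 CPM in vehicle and 65.5 at 2 h, followed by 35.6, 15.5 and 9.96 CPM. Chac1, which degrades glutathione, was at 13.4 CPM in vehicle and 27.1 at 2 h, followed by 12.4, 7.50 and 5.88 CPM. Both were highest at 2 h and lowest at 24 h. Their ratios were 1.57 (1.45 to 1.69) and 1.02 (0.86 to 1.18), and 1.60 and 1.12 length-adjusted. Sesn2, a leucine sensor that restrains mTORC1, was just under the threshold at 0.99 (0.93 to 1.06), with 86.9 CPM in vehicle and 173 at 2 h, followed by 104, 65.7 and 62.9. Ddit4, another inhibitor of mTORC1, was at 0.86 with 16.0 CPM in vehicle and 29.0 at 2 h, but its later values were higher still, at 39.9, 43.2 and 37.6 CPM.

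The synthesis enzymes themselves were closer to vehicle. Aldh18a1, which makes proline precursors, had a ratio of 0.71 and the folate enzyme Mthfd2 0.47. The serine pathway genes Phgdh and Psat1 were at 0.38 and 0.16. Asns, asparagine synthetase, was at 118 CPM in vehicle and 141 at 2 h (0.26), then at 138, 64.6 and 44.8. Nupr1 and Pycr1, at -0.09 and -0.02, were the compared members below vehicle. Of the stress transcription factors, Atf3 was at 0.46 (47.2 and 65.1 CPM) and Ddit3, which encodes CHOP, at 0.40 (27.0 and 35.5 CPM), both uncalled. The remaining members were under the minimum or at 0: Cebpb was at 2.23 and 2.87 CPM, Cbs at 0.92 and 0.99 CPM, Gdf15 had 2 and 6 counts, and Vldlr, Fgf21 and Stc2 had 0 counts in both libraries.

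Of the 15 regulators of the response itself, 0 were called, and their median ratio was 0.07 (0.03 length-adjusted). Atf4 was at 521 CPM in vehicle and 661 at 2 h, and at 502, 367 and 358 later, with a ratio of 0.34 (0.31 to 0.37; 0.45 length-adjusted). Ppp1r15b, a constitutive partner of the eIF2 phosphatase, had the highest ratio of the group at 0.65 (0.35 length-adjusted), and its stress-induced relative Ppp1r15a was at 0.30. Eif2s1, the phosphorylated subunit of eIF2, had the lowest at -0.48. Of the 20 cytosolic aminoacyl-tRNA synthetases, 15 lay above vehicle with a median of 0.17, and 0 were called. Iars, the isoleucine enzyme, led with 258 CPM in vehicle and 437 at 2 h (0.76; 0.60 length-adjusted), followed by Vars at 0.54. By 24 h, 19 of the 20 synthetases were below their 2 h level, with a median of 0.50 for 2 h over 24 h. Phosphorylation of eIF2 and protein levels are not measured in these data.

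**Figure D2:**
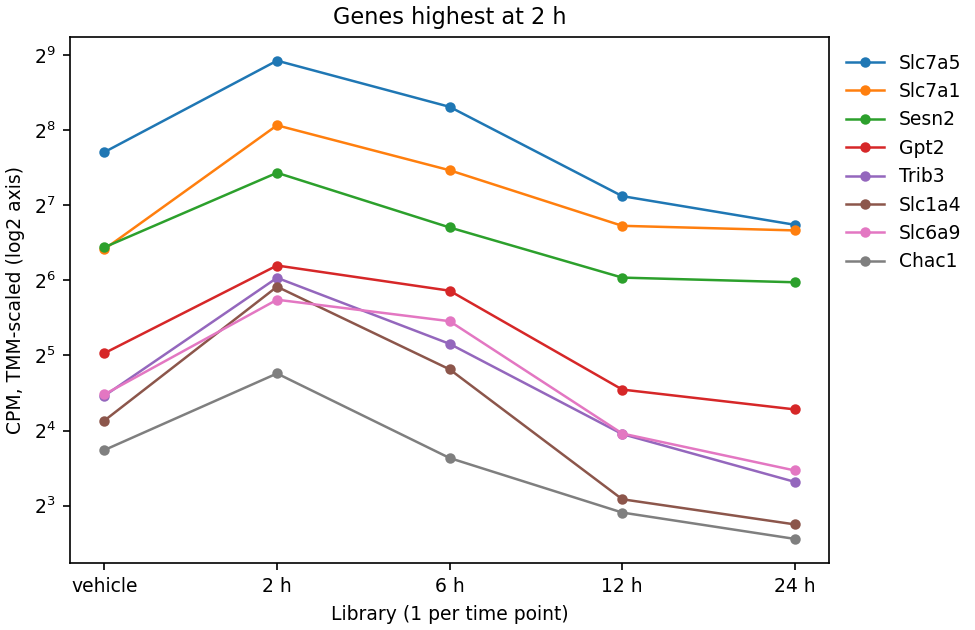
CPM on a log2 axis in each of the 5 libraries, 1 point per library, for 8 genes of the amino acid response. They were chosen because they were highest at 2 h, and members with another course, such as Ddit4, are not shown. Slc1a4, Trib3, Slc6a9, Gpt2, Slc7a5 and Chac1 end below vehicle by at least 0.5 on the log2 scale at 24 h.

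A gene outside these lists, chosen after its values were seen, followed the same course. Gpt2, the mitochondrial alanine aminotransferase, was called higher with 32.7 CPM in vehicle and 73.4 at 2 h (1.17; 1.03 length-adjusted), and was at 58.2, 23.4 and 19.4 CPM afterwards. The phosphoenolpyruvate carboxykinase Pck2 and the branched-chain aminotransferase Bcat1 were not called, with ratios of 0.74 and 0.59. Pck2 was at 56.8 CPM in vehicle and 95.2 at 2 h, then 80.1, 36.2 and 25.6.

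Sequences upstream of these genes are shown because ATF4 and its C/EBP partners bind a short composite element. Promoters, 250 bases before to 50 after the annotated start, were taken from RefSeq on GRCm38.p6 and searched on both strands for the letters TGATGNAA, which read TTNCATCA on the opposite strand. The letters were found in 191 of 8762 promoters of compared genes (2.18%) and in 3.97% of all 32851 RefSeq promoters. Counted per gene, with 1 or more promoters each, this was 2.66% of matched compared genes and 4.51% of all RefSeq genes. Matched genes are those for which a RefSeq promoter entry was found, with or without the letters. In the list of synthesis enzymes and regulators 7 of 18 matched genes held them (38.9%), and among the synthetases 5 of 13 (38.5%). Among the transporters it was 1 of 7, and among the regulators of the response 0 of 12. Of all genes called higher, 4 of 59 matched genes held the letters: Slc1a4, Trib3, Chac1 and Gse1, a chromatin protein. A match is a description of the sequence and not evidence of binding. Each window below is written 5′ to 3′ on the strand of the gene, with the matched letters in capitals and 10 bases on either side.
Slc1a4: gcctcctgcgTTGCATCAtctccagcct
Trib3: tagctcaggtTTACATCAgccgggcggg
Chac1: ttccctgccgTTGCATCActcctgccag
Asns: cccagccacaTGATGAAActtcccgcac
Atf3: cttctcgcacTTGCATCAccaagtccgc
Herpud1: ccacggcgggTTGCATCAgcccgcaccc
Nupr1: aagggccagaTTGCATCAgacagggctt
Pycr1: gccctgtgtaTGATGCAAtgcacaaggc
Iars: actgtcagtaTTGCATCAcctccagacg
Yars: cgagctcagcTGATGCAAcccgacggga
Tars: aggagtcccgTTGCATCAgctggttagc
Gars: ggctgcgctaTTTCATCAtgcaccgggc

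The elements differed in place and in the variable base, and the genes that carried them differed in response. In Slc1a4 the first matched base lay 4 bases before the annotated start, in Asns 23 bases before it, in Atf3 110 bases before it and in Chac1 193 bases before it. In Trib3 and Iars the match began at base 15 and base 8, counted from the start as base 1. The letters TTGCATCA stood on the gene's strand in Slc1a4, Chac1, Atf3, Herpud1, Nupr1, Iars and Tars. These genes ranged from a ratio of 1.78 (Slc1a4) to -0.09 (Nupr1), so that identical letters stood beside unlike ratios. Aars held the letters at 2 places. The promoters of Slc7a1 and Slc6a9 held no match in this window, which says nothing of elements elsewhere. For Slc7a5, Slc1a5, Slc38a1, Cth, Eif2b3, Ppp1r15b, Dele1, Cars, Hars, Lars, Nars, Rars, Vars and Wars no RefSeq promoter entry was found. Their promoters were therefore not searched. The full windows of the called list members are given for context.
Slc1a4, chr11:20332664-20332963, minus strand: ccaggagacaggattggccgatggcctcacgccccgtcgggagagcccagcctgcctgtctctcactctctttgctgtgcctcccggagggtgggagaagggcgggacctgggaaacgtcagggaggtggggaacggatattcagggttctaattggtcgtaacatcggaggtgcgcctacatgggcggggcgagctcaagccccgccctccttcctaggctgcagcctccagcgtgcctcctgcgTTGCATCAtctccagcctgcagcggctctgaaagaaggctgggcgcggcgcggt
Trib3, chr2:152344011-152344310, minus strand: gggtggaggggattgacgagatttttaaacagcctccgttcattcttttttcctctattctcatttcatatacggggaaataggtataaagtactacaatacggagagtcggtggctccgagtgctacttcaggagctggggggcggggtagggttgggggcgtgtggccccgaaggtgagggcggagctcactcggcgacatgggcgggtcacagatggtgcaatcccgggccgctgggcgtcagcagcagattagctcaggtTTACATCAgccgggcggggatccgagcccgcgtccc
Chac1, chr2:119350992-119351291, plus strand: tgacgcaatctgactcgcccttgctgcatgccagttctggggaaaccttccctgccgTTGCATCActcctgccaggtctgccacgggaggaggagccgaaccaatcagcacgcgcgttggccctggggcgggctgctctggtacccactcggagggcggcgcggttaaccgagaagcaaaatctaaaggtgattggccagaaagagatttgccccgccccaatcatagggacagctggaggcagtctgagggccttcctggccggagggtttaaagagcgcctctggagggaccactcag

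A ratio over vehicle rests on the vehicle library, so genes were also sought whose 2 h level stood apart from the other 4 libraries. At a distance of at least 1 on the log2 scale from each of them, 4 genes stood above and 2 below. Those above were Slc1a4, Chac1 and the predicted genes Gm29253 and Gm10252, and those below were an entry of Nnt and Gm21982. Besides Slc1a4 and Chac1, these entries overlap other genes: Gm29253 shares exons with Atg9a (sum 0.36), Gm10252 overlaps Ftl1 on the opposite strand (sum -0.09), and the sums of the Nnt entry and Gm21982 are given with the genes called lower. Ftl1, at 1798 and 1680 CPM, was so far above Gm10252 (3.29 and 14.4 CPM) that their sum would lie near 0 in any case. At a distance of 0.5, a threshold added after the data were seen, 11 stood above, of which 6 belonged to the ATF4 lists: Slc1a4, Chac1, Trib3, Sesn2, Slc7a1 and Slc7a5. The lists make up 29 genes, or 0.334%, of the genes compared. They were chosen with earlier results of these data known, so the 6 of 11 is not an independent result. Relative to 6 h, where the length trend was near 0, the 2 h level of these genes was higher by 1.10 for Slc1a4, 1.12 for Chac1, 0.88 for Trib3, 0.73 for Sesn2, 0.60 for Slc7a1 and 0.61 for Slc7a5. The other named genes above were Tspyl4, at 10.3 CPM in vehicle and 22.5 at 2 h with 15.1, 12.4 and 14.6 later, the ubiquitin protease Usp36, at 28.5 and 58.4 CPM and then 40.9, 27.4 and 26.0, and Fam43a, at 26.1 and 51.0 CPM and then 34.9, 24.4 and 15.7.

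A larger group of genes was higher at 2 h and then stayed there. Of the 79 genes called higher, 53 remained within 0.5 of their 2 h level at 6, 12 and 24 h, while 12 were lower by at least 1 at 24 h than at 2 h. Staying near the 2 h level was common among all genes. Taken 1 time at a time, 98.42% of genes lay within 0.5 of it at 6 h, 93.4% at 12 h and 87.95% at 24 h. For these 53 genes the 4 treated libraries lay together and the vehicle library lay apart. Whether this came from the cells or from the vehicle library, with its length trend, was not tested. The highest ratios with an ordinary symbol outside the overlapping entries belonged to Plekhm3, Peak1, Phc3, Pdpr, Heg1 and Atp7a. Plekhm3, a pleckstrin homology domain protein (chromosome 1, 64785983 to 64956824), was at 18.7 CPM in vehicle and at 112, 111, 122 and 141 CPM at 2, 6, 12 and 24 h. Its ratio of 2 h over vehicle was 2.58 (2.46 to 2.71), from 613 and 4194 counts, and 2.10 length-adjusted. Peak1, a pseudokinase of the cytoskeleton, was at 5.34 CPM in vehicle and 30.8, 40.0, 41.1 and 46.0 CPM afterwards (2.52; 2.08 length-adjusted).

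Pdpr, the regulatory subunit of pyruvate dehydrogenase phosphatase, was at 3.81 CPM in vehicle and 19.1, 21.1, 21.1 and 22.8 CPM afterwards (2.31; 2.09 length-adjusted). Atp7a, a copper-exporting ATPase, was at 4.79 CPM and then 19.6, 23.7, 25.2 and 30.3 CPM (2.02; 1.93 length-adjusted). Heg1, a junctional receptor, was at 6.83 CPM and then 32.3, 30.8, 31.3 and 30.3 CPM (2.23; 1.70 length-adjusted). In these 3 genes the treated libraries did not come near the vehicle level. Phc3, a subunit of Polycomb repressive complex 1, broke from this pattern, with 5.55 CPM in vehicle, 30.9 and 33.8 at 2 and 6 h, and 12.5 and 14.5 at 12 and 24 h. It was the called member of 31 Polycomb and Trithorax genes, beside 0.911% of all compared genes called higher. The median of these 31 genes was 0.26 and 0.06 length-adjusted.

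Further called genes with a flat course were the nuclear receptor Nr2c2 (9.15 and 32.7 CPM; 1.83), the kinase Hipk2 (23.8 and 76.5 CPM; 1.68), the corepressor Lcor (8.60 and 26.2 CPM; 1.60) and the adhesion protein Vcl (43.6 and 110 CPM; 1.33). All 4 passed also when length-adjusted, at 1.47, 1.12, 1.61 and 1.06. Receptors were among the called genes: Tnfrsf14, the herpesvirus entry mediator, was at 4.39 and 12.0 CPM (1.43; 1.64 length-adjusted), and Lpar5, a receptor of lysophosphatidic acid, at 12.6 and 26.8 CPM (1.09; 1.22). Tlr9, the endosomal sensor of unmethylated DNA, was at 57.1 and 126 CPM (1.14), and at 0.95 length-adjusted it no longer passed. Several genes with very long transcripts lost their call on adjustment. Pkd1 moved from 1.47 to 0.72, Notch1 from 1.21 to 0.53, Notch2 from 1.14 to 0.46, the endocytic receptor Lrp1 from 1.11 to 0.36, and Fasn, fatty acid synthase, from 1.01 to 0.32. Wdfy4, which cDC1 need for cross-presentation, was at 955 and 1892 CPM, just under the threshold at 0.99, and at 0.31 length-adjusted.

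**Figure D3:**
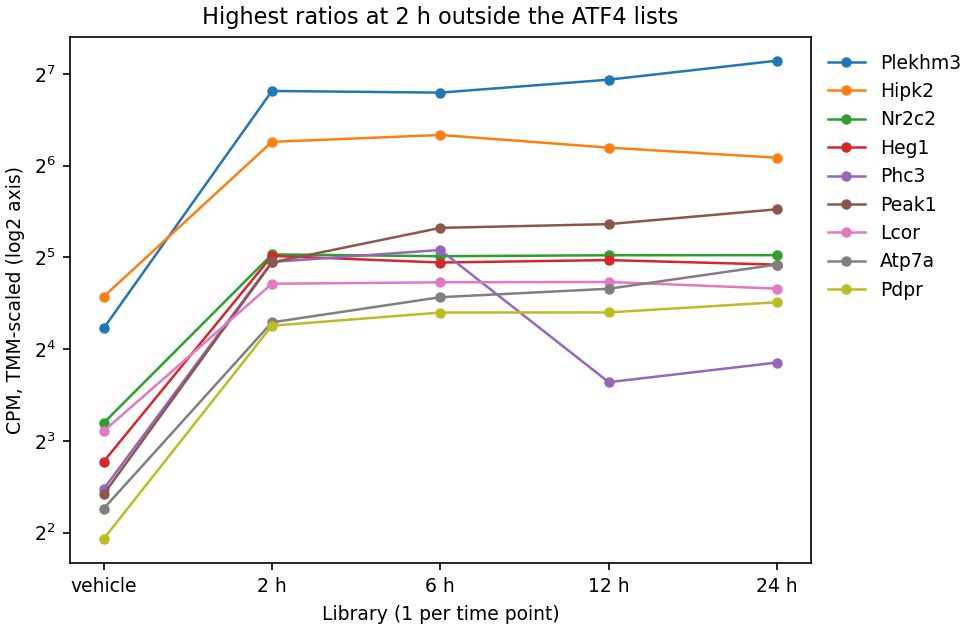
CPM on a log2 axis in each of the 5 libraries, 1 point per library, for the 9 called genes with the highest ratios that have an ordinary symbol, share no exons on their strand and are outside the ATF4 lists. The vehicle point lies below all 4 treated points in each gene, and Phc3 drops between 6 and 12 h to 12.5 CPM.

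Adjustment also brought in 4 genes called higher and 4 called lower. Tiparp, an ADP-ribosyltransferase, had a ratio of 0.91 and 1.06 length-adjusted, with 30.6 CPM in vehicle, 57.7 at 2 h and 36.3 at 6 h. Ankrd37, a hypoxia-responsive gene, had 8.63 and 15.5 CPM (0.84; 1.14 length-adjusted), and the others called higher were the predicted genes Gm10557 and Gm21811. In the lower direction these were the nuclear non-coding RNAs Malat1 and Neat1, which are long, together with Cacna1s, a calcium channel subunit, and BC004004. Malat1 was at 274 CPM in vehicle and 150 at 2 h, followed by 113, 93.2 and 81.7 CPM (-0.87; -1.07 length-adjusted). Neat1 was at 18.9 and 13.2 CPM (-0.51; -1.08 length-adjusted).

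The genes called lower were fewer and many shared sequence with others. Of the 36, 21 shared exons with another gene on the same strand, as did 17 of the 79 called higher, against 9.45% of compared genes. For such entries the counting decides which gene receives a read, and no source used here names the counting program. Summing each of these 38 entries with its overlapping partners left 29 sums within 1 of vehicle on the log2 scale and 19 within 0.5. Where the partners hold far more counts, the sum lies near 0 whatever the entry does, and it cannot show where reads went. Gm49450, for example, was at 26.0 and 11.0 CPM in a sum of 2695 and 2586 CPM. The entries of Nnt, a mitochondrial transhydrogenase, went from 15.7 to 97.0 CPM and from 85.6 to 7.56 CPM, while their sum was 101.3 and 104.6 CPM (0.05). Dpm1, a mannose transferase subunit, went from 27.8 to 7.58 CPM, and Gm20716, which shares its exons, from 0 to 17.6 CPM. The sum of this pair differed by -0.14. Gm21982 was at 66.6 CPM in vehicle and 3.27 at 2 h beside its partner Rbm42 at 90.9 and 156 CPM, and the sum differed by 0.21. For Ankhd1 (42.4 and 93.7 CPM) and Maskbp3 (35.3 and 14.8 CPM) the sum differed by 0.48. The sums of Zc3h11a (20.6 and 5.25 CPM) and of Atrip (69.4 and 28.6 CPM) with their partners differed by 0.31 and -0.41. Derpc and Tmppe, among the highest called genes, lie in Chtf8 and Glb1, and their sums differed by 0.08 and 0.29. These partners held more counts, with Chtf8 at 221 and 217 CPM beside Derpc at 7.53 and 24.3 CPM, so these sums decide little.

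**Figure D4:**
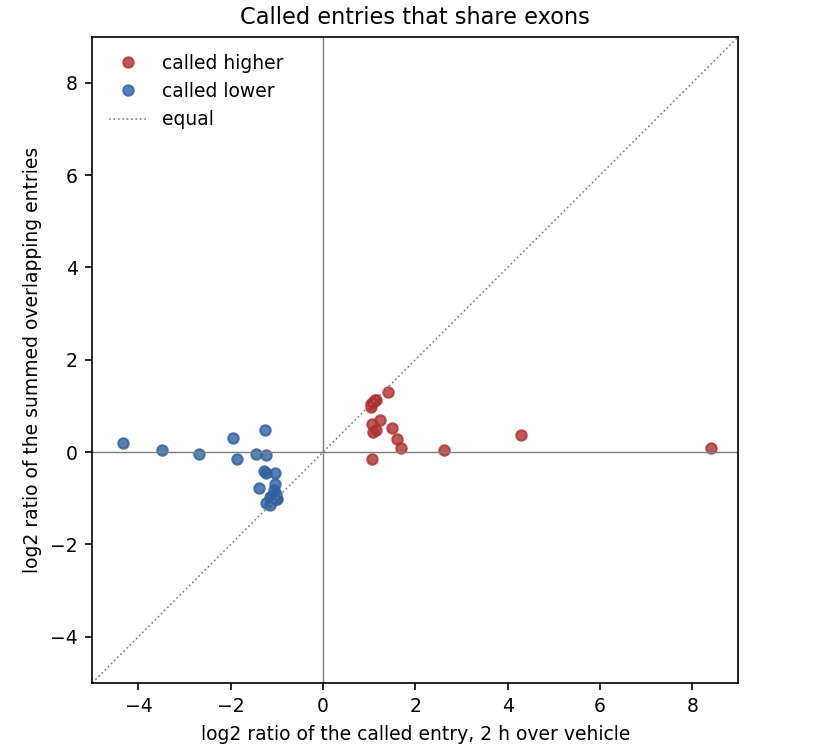
Log2 ratio of 2 h over vehicle of each called entry that shares exons on its strand with another gene (x axis) against the ratio after summing it with all overlapping entries (y axis), for 17 entries called higher and 21 called lower. Entries far from 0 on the x axis, such as the Nnt pair at 2.62 and -3.49, lie near 0 on the y axis. Where the partners hold far more counts than the entry, a place near 0 on the y axis follows from their size.

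Overlap on the opposite strand matters as well, since the library kit does not mark strand. Rffl, a ubiquitin ligase, had the lowest ratio among ordinary symbols without a same-strand partner, at -2.12 (-2.41 to -1.88; -2.32 length-adjusted). It was at 17.7 CPM in vehicle, 4.02 at 2 h and 3.11, 4.08 and 2.81 CPM later, so that all treated libraries lay below vehicle. The exons of Rffl overlap those of Lig3, a DNA ligase on the other strand, which was itself called higher at 22.02 and 46.46 CPM (1.08). Their sum was 39.7 CPM in vehicle and 50.5 at 2 h (0.35). Nr2c2 and Vcl, named above, overlap Mrps25 and Ap3m1 in the same way, and these partners were at -0.44 and -0.41. The sums of Nr2c2 and Vcl with them differed by 0.12 and 0.33. Of all genes called, 8 of the 79 higher (10.1%) and 4 of the 36 lower (11.1%) had such a partner among the compared genes, against 12.8% of all compared genes. How reads in these stretches were assigned was not tested.

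Mitochondrially encoded messages lay below vehicle in 12 of 13 cases, with a median of -0.93, and 5 were called lower, beside 0.415% of all compared genes. The called members were mt-Nd6 (475 and 169 CPM; -1.49), mt-Nd4 (1425 and 609 CPM; -1.23), mt-Nd3 (272 and 122 CPM; -1.15), mt-Atp6 (2164 and 980 CPM; -1.14) and mt-Cytb (1984 and 966 CPM; -1.04). All encode subunits of the respiratory chain or of ATP synthase. The length-adjusted median, with the trends on both length and GC content removed, was -0.16, with 0 called. How much of this shift belonged to length and how much to GC content was not tested. The exception was mt-Nd4l at 96.8 and 98.4 CPM (0.02). The genes of mt-Nd6 and mt-Nd5 overlap on opposite strands. The nuclear pseudogenes Gm10925, Gm28438 and Gm29216 were also called lower, and 100%, 99.05% and 97.19% of their 31-base words occur in mitochondrial transcripts, so their reads cannot be told apart from mitochondrial ones. Nuclear genes of the respiratory chain had a median of -0.13 and 0.10 length-adjusted over 40 genes, with 0 called.

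Apart from mitochondrial genes and their copies, 5 genes called lower had no overlapping partner on either strand: Xlr, Cdkn3, 1700013H16Rik and the pseudogenes Gm10108 and Gm14599. Xlr, a member of an X-linked family of lymphocyte genes whose copies may share reads, was at 222 CPM in vehicle and 109, 105, 104 and 105 CPM in the treated libraries (-1.03; -0.52 length-adjusted). Cdkn3, a phosphatase of cell cycle kinases, was at 16.4 and 8.14 CPM and passed the threshold narrowly (-1.003; -0.72 length-adjusted). The entry 1700013H16Rik lies next to Xlr on chromosome X (53742901 to 53757831, and 53777118 to 53797706 for Xlr) and was at 269.6 and 125 CPM (-1.11; -0.55 length-adjusted). Gm10108 was at 10.2 and 4.88 CPM and Gm14599 at 11.2 and 5.55 CPM. None of these 5 passed when length-adjusted. Rbis, a ribosome assembly factor with a short transcript, was at 40.9 and 16.5 CPM (-1.30; -0.58 length-adjusted), and its end overlaps E2f5 on the other strand, which was under the minimum. Hdgfl3 passed also when length-adjusted, at -1.24 (15.1 and 6.62 CPM; -1.18 unadjusted), and its exons overlap Tm6sf1 on the other strand.

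Genes that respond within minutes to hours in other settings differed little at 2 h. Of 28 immediate early genes 17 were compared, with a median of 0.16 (0.10 length-adjusted), and 0 were called. Egr3 was at 20.3 and 30.4 CPM (0.58), Egr1 at 26.4 and 35.5 CPM (0.43), Fos at 12.6 and 16.1 CPM (0.36), Jun at 89.2 and 99.5 CPM (0.16) and Myc at 264 and 238 CPM (-0.15). Ier3 had 0 CPM in vehicle and 0.38 at 2 h, and Dusp1 was at 6.07 and 5.76 CPM. Whether an earlier transient had passed before 2 h is not measured in these libraries. Of 12 compared NF-kB subunits, inhibitors and feedback genes 0 were called, with a median of 0.04. Nfkb2 was at 0.69 (0.44 length-adjusted), Rel at 0.68 (0.45) and the inhibitor Nfkbia at -0.19. Cytokines and chemokines were mostly under the minimum, with 7 of 26 compared and a median of -0.33 (-0.01 length-adjusted), and Tnf was at 2.84 and 2.09 CPM.

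Among lists with at least 7 compared genes, the clock list came next to the transporters by measured median, and by length-adjusted median it came after the synthesis enzymes and regulators of the ATF4 programme. Its median was 0.50 over 7 genes (0.34 length-adjusted), with all 7 above vehicle and 0 called. Tef, a clock output factor, was at 10.9 CPM in vehicle and 19.1 at 2 h (0.81), Per1 at 36.4 and 58.9 CPM (0.69) and Ciart at 12.1 and 17.2 CPM (0.50). At 24 h the list's median over vehicle was 0.76. Calcium channel, pump and store genes had a median of 0.28, which became 0.08 length-adjusted. The inositol trisphosphate receptors Itpr3 (82.2 and 155 CPM; 0.92) and Itpr1 (128 and 238 CPM; 0.90) had ratios of 0.26 and 0.33 after adjustment. NFAT pathway genes went from a median of 0.31 to 0.04 in the same way.

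Hypoxia-inducible and glycolysis genes, which stood further above vehicle at later times, had low medians at 2 h with single members higher. Over vehicle, the median of the 9 compared hypoxia genes was 0.25 in the 2 h library and 1.17 and 1.53 in those of 6 and 24 h, and 9 of 9 were lower at 2 h than at 24 h. None of the 9 was called as measured, and 1 was called when length-adjusted (Ankrd37, given above, beside 0.404% of all genes). Slc2a1, the glucose transporter GLUT1, was at 49.0 CPM in vehicle and 88.5 at 2 h (0.85; 0.71 length-adjusted), followed by 169, 202 and 178 CPM. Of 18 glycolysis genes 17 lay above vehicle with a median of 0.18 and 0 called, and Hk2, hexokinase, was highest at 0.94 (111 and 214 CPM; 0.57 length-adjusted). Slc16a3, the lactate exporter, was at 96.2 and 149 CPM (0.63). For cholesterol genes, of synthesis and uptake, the median was 0.19 (0.25 length-adjusted), with 20 of 26 above vehicle and 0 called. Their median over vehicle was 0.65 at 6 h and 0.74 at 24 h. Tfrc, the transferrin receptor, was at 85.7 and 135 CPM (0.65; 0.74 length-adjusted).

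Genes of nutrient sensing at the lysosome had a median of 0.28 over 18 members and 0.12 length-adjusted, with 0 called. Besides Sesn2, which belongs to this list too, Flcn, the folliculin gene, was at 15.8 and 29.6 CPM (0.91; 0.73 length-adjusted), and its partner Fnip1 at 8.36 and 13.9 CPM (0.73; 0.72). Mtor was at 0.84, and at 0.22 length-adjusted. Lysosomal hydrolases and membrane proteins had a median of -0.04 over 31 genes and 0 called. The medians of stress lists were -0.08 for the endoplasmic reticulum (23 genes), -0.17 for heat shock (12 genes) and -0.10 for the NRF2 pathway (17 genes), each with 0 called and a length-adjusted median between -0.04 and 0.01. Hmox1 was at 687 and 676 CPM (-0.02) and Sqstm1 at 418 and 505 CPM (0.27). Among p53 targets the death receptor Tnfrsf10b was at 8.48 and 16.3 CPM (0.94; 0.93 length-adjusted), while the list's median was -0.12.

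Mitosis genes lay below vehicle in 24 of 29 cases, with a median of -0.22 that hardly differed after length adjustment (-0.21), and 0 were called. Nusap1, a spindle protein, was at 89.1 and 55.4 CPM (-0.68), Birc5, survivin, at 165 and 110 CPM (-0.59) and Ube2c, which acts with the anaphase-promoting complex, at 278 and 194 CPM (-0.52). At 24 h the list's median over vehicle was 0.12. The 34 DNA replication genes were at a median of 0.06. Cytosolic ribosomal protein genes, whose transcripts are short (median 914 bases), had a median of -0.27 over 79 genes with 68 below vehicle, and -0.01 length-adjusted. Proteasome subunits (-0.25 over 31 genes) and mitochondrial ribosomal proteins (-0.20 over 31) were at 0.00 and -0.04 after adjustment.

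In the lists of dendritic cell genes given here 0 members were called, and the medians lay between -0.13 and 0.20. The list of Toll-like receptors and their signalling had 1 called member of 13 compared, Tlr9, given above, beside 0.911% of all compared genes called higher. Its median was 0.13 (0.10 length-adjusted), and 0 were called when length-adjusted. The 14 MHC class II genes were at a median of -0.13 (0.01 length-adjusted), with the invariant chain Cd74 at 9698 and 7202 CPM (-0.43; -0.28). The 18 MHC class I genes were at a median of 0.06, with B2m at 1452 and 886 CPM (-0.71; -0.07). Among 16 compared interferon-stimulated genes the median was -0.05, and among 7 costimulation and migration genes 0.10, each with 0 called. The costimulator Cd86 was at 122 and 100.5 CPM (-0.28; 0.00 length-adjusted). The 14 surface and cross-presentation genes of cDC1 were at a median of -0.11 (0.06 length-adjusted), with the endocytic receptor Ly75 at 59.0 and 90.5 CPM (0.62; 0.32 length-adjusted) and Wdfy4, given above, at the top. The 10 lineage factors of cDC1 were at a median of 0.20 (0.04 length-adjusted), with Id2 at 1162 and 822 CPM (-0.50) and Irf8 at 0.27.

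**Figure D5:**
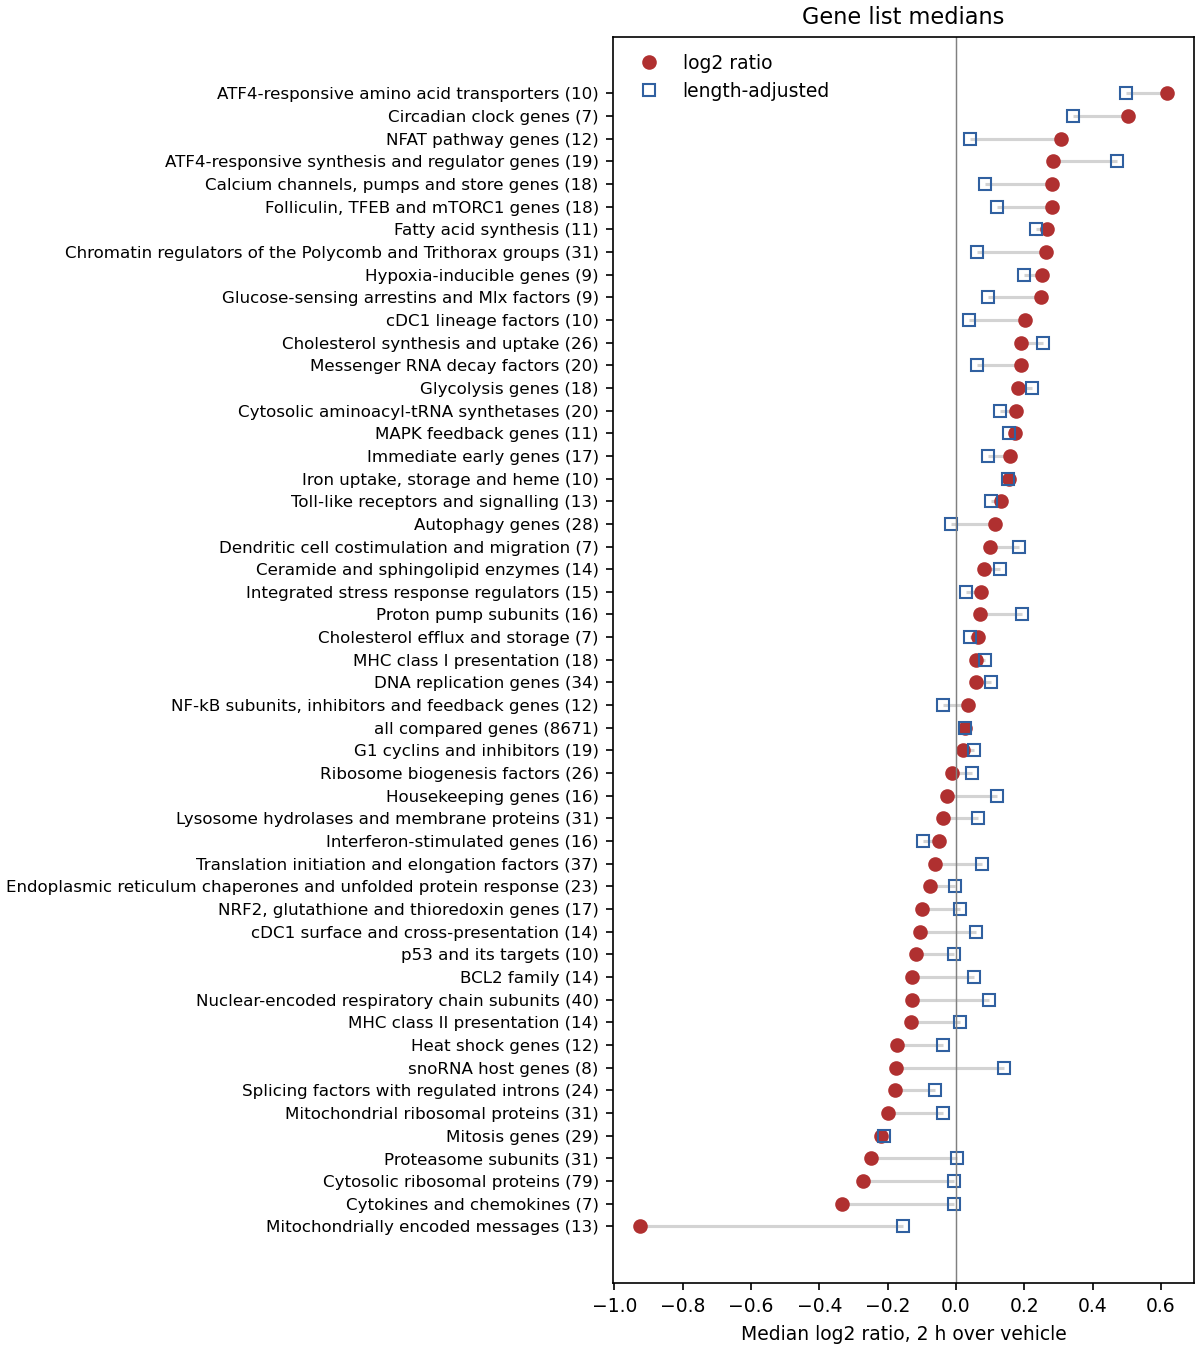
Median log2 ratio of 2 h over vehicle for gene lists with at least 7 compared members, with the number of compared genes in parentheses. Circles show values as measured and squares those length-adjusted, which takes out trends on both length and GC content. The transporter list of the ATF4 programme lies farthest right at 0.62 and stays at 0.50 after adjustment, while the mitochondrial messages move from -0.93 to -0.16.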

How the data were processed

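RNA-seq was made from MutuDC cells at vehicle and after 2, 6, 12 and 24 h of Fanchinoline. Per the labels' protocols, TRIzol RNA was enriched for poly-A RNA and made into libraries with a TruSeq kit that does not mark strand. The authors deposited raw counts per gene. Trim Galore, HISAT2 and GRCm38 are named without versions, per the submitters' processing notes. The counting program, its annotation and its treatment of shared reads were not given in the sources used here. If the counts are not whole reads, the intervals would not hold as stated.

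Counts were scaled with TMM factors over all 5 libraries (0.977 for vehicle, 0.993 at 2 h; edgeR 4.0.16, limma 3.58.1, R 4.3.3) and expressed as log2 CPM, using 2 as the prior count. Genes with 10 CPM in either library were compared. A gene was called at a log2 ratio of at least 1 in size with a 95% exact (Clopper-Pearson) interval that excludes equality. With 1 library a side no test was run. Where a library has 0 counts, up to 3 are allowed for, or 0.0915 CPM in vehicle and 0.0804 CPM at 2 h. Length-adjusted ratios are residuals, plus the overall median, of a smooth fit on transcript length and GC content (mgcv 1.9.3) with GENCODE's annotation on GRCm38, which held 99.87% of compared genes. Overlap means shared exon positions in that annotation. The procedure was tested on simulated data with known fold changes.

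The gene sets, 52 lists and 9 marker lists were chosen with earlier results of these data known. Named genes were the 15 highest and 15 lowest called genes with ordinary symbols, the 10 highest and 10 lowest by length-adjusted ratio, at most 4 members of a list by size of ratio, called list members, genes apart from the other 4 libraries, overlapping pairs that moved against each other, and 19 genes fixed by name. Others were chosen after their values were seen. Where a symbol had several entries, lists used the one with the most counts. Alternatives were DESeq2 1.42.0 size factors, library totals, other filters, priors and thresholds, and overlapping genes left out.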

Additional observations from a re-analysis of the deposited data

Results flagged for a closer look

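In 5 genes called higher at 2 h the library of 24 h stood at least 1 below vehicle on the log2 scale, so that the 2 times lay on opposite sides. The ratios share the vehicle library, each time has 1 library, and the difference between the times was not tested. For the amino acid transporters the log2 ratio of 24 h over vehicle was -1.38 for Slc1a4 and -1.01 for Slc6a9. For the pseudokinase Trib3 it was -1.14 and for Chac1, which degrades glutathione, -1.18. All 4 also passed at 2 h when length-adjusted. The fifth was Pde2a, a cyclic nucleotide phosphodiesterase, at -4.10. It was at 5.25 CPM in vehicle and 11.2 at 2 h, followed by 8.69, 6.89 and 0.26 CPM. Its exons overlap those of Gm45837, which was at 7.96 CPM in vehicle and 6.67 at 2 h, and it did not pass at 2 h when length-adjusted (0.79).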

How the results depend on the processing

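The 79 genes called higher became 85 with DESeq2 size factors and 91 with library totals, and all 79 were among them. The 36 called lower became 31 under both, and the 31 were among the 36. Prior counts of 0.5 and 5 gave 80 and 79 higher, 37 and 34 lower. A minimum of 20 CPM left 60 higher and 25 lower, and one of 1 CPM gave 195 and 174. Without a filter 540 were higher and 684 lower, which turned the balance of directions. Length adjustment left 35 higher and 18 lower, and adjustment for length alone 38 and 26. Leaving out genes that share exons left 62 higher and 15 lower. At a log2 ratio of 1.5, 19 were higher and 6 lower. The length difference was between 0.587 and 0.638 over the normalizations, priors and filters tried. The 6 genes at which 2 h stood apart from the other libraries became 16 with a minimum of 1 CPM and 21 at a distance of 0.5. Among genes named by the fixed rule, 10 lost their call on length adjustment (Fasn, Haus3, Rbis, Tlr9, Zfp934, mt-Atp6, mt-Cytb, mt-Nd3, mt-Nd4 and mt-Nd6). Ankrd37, Malat1 and Neat1 gained one. Sesn2 and Wdfy4 passed with DESeq2 size factors (1.01 and 1.001). No paired analysis was possible because each group has 1 library, and for the same reason no replicate could be left out. Every gene compared has at least 328 counts in one library, and the spread between cultures was not measured.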

Other observations

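Genes at which the 2 h library was the lowest of the 5 form a smaller set. At a distance of 0.5 on the log2 scale from every other library there were 10, of which 4 were called lower and share exons with other genes on their strand (an entry of Nnt, Gm21982, Gm43738 and Pagr1a). The sum of Gm43738 with its partners, Fdps the most abundant, differed by -0.04, and that of Pagr1a with its partners by -0.46. Fdps, at 822 and 820 CPM, far outweighed Gm43738, so the sum of Gm43738 would lie near 0 in any case. Ccng2, an unconventional cyclin that restrains proliferation, was at 12.2 CPM in vehicle and 8.15 at 2 h, followed by 17.2, 29.2 and 31.8 CPM. Fam162a, a hypoxia-responsive mitochondrial gene, was at 33.9, 23.8, 40.7, 67.2 and 72.9 CPM in the same order. Prelid2, a gene of the family of mitochondrial lipid carriers, was at 11.4, 5.98, 11.5, 18.8 and 15.8 CPM. Sgo2a, which protects centromeric cohesion, was at 22.8 CPM in vehicle and 14.9 at 2 h, and between 21.3 and 24.7 CPM later. The ratio of 2 h over vehicle was -0.58 for Ccng2, -0.51 for Fam162a, -0.93 for Prelid2 and -0.62 for Sgo2a, and -0.43, -0.05, -0.51 and -0.56 length-adjusted. None of these 4 was called. The threshold of 0.5 was chosen after the data were seen.

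Some of the widest differences lay under the minimum of 10 CPM. Mir17hg, the host transcript of a microRNA cluster, had 0 counts in vehicle and 85 at 2 h, at least 24.9-fold higher against 3 counts in the vehicle library, and was at 2.28, 1.53, 1.14 and 0.56 CPM at 2, 6, 12 and 24 h. Tubg2, a gamma-tubulin gene, had 0 and 36 counts (at least 10.5-fold higher) and stayed between 0.70 and 1.03 CPM later. Snhg4 bears the name of a host of small nucleolar RNAs, but this entry is annotated as protein-coding and shares exons with other genes on its strand. It had 165 counts in vehicle and 5 at 2 h. Yy2, which lies within Mbtps2, had 68 and 1. The entries Ugt1a1, Ugt1a2, Ugt1a5 and Ugt1a9 had 2 counts each in vehicle and 42, 69, 49 and 89 at 2 h, and these entries share their last exons. Pagr1b had 0 and 95 counts, while Pagr1a, which shares exons with it, was at 22.2 and 9.32 CPM.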
